A study of Mus musculus with 37 samples.

Results

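The genes of mouse bone marrow neutrophils were compared between cells given bacterial lipopolysaccharide (LPS) and cells left untreated. Transcript values were summed per gene, and a gene was kept when at least 1 of its 2 group values reached 10, which held for 5910 of the 6509 named genes in the table. The change of a gene is log2((LPS + 1)/(untreated + 1)), and a gene is called raised or lowered where it changed at least 2-fold. By this measure 515 genes (8.71% of those kept) were raised and 463 (7.83%) were lowered, while 4932 (83.5%) changed by less than 2-fold. Among the raised genes stood interleukins, chemokines, interferon-stimulated genes, NF-kB regulators and antioxidant enzymes. Among the lowered genes stood the chemokine receptor Cxcr2, the collagenase Mmp8, the gelatinase Mmp9, the integrin chain Itgam, and genes of the cytoskeleton. G protein-coupled receptors and lysosomal genes were called in both directions.

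LPS is a component of the outer membrane of Gram-negative bacteria that Toll-like receptor 4 recognizes. The receptor signals through MyD88 to NF-kB and MAP kinases, and through TRIF to interferon regulatory factors, whose product, type I interferon, acts back on the cells through its own receptor. Neutrophils are short-lived granulocytes that follow chemokines into tissue, adhere through integrins, release preformed granule proteases and kill microbes with oxidants, and they also transcribe cytokine genes when stimulated.

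The series holds RNA-seq of 5 myeloid cell types of C57Bl6cJ mice, and a sample of CD4+ T cells. Macrophages, neutrophils, splenic dendritic cells and mast cells received IL-10, LPS, both or neither. Eosinophils had groups only with LPS and untreated. Neutrophils had 8 libraries, 2 in each of 4 groups. Untreated cells received nothing, the LPS group received 100 ng/ml LPS for 4 h, the IL-10 group received 100 ng/ml IL-10 for 4 h, and the group with both received IL-10 for 4 h and then LPS for a further 4 h. Neutrophils of all 4 groups came from marrow pooled over mice, were taken from the bottom layer of a Percoll step gradient and were kept overnight with GM-CSF, a growth factor that matures and maintains them, before the medium was renewed. The text of the study gives no harvest time for the groups without LPS, which may have been cultured for a shorter time. LPS and any difference in culture time cannot be told apart. The values are the authors' means over the 2 libraries of a group, with no error, so no gene could be tested and every comparison below is one of size. Values are not divided by transcript length, so a higher value of 1 gene than of another is not read as more transcripts, and sums over marker genes and gains or losses in value weigh long transcripts more. Depth is unknown from the table, and in bulk RNA fewer cells of a type and less RNA per cell cannot be told apart.

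The promoters of 4 leading genes are shown because the motif of interferon-regulated promoters was the one whose share differed most between raised and lowered genes. Each runs from 250 bases before to 50 bases after the start of the gene's transcript with the highest value, 5′ to 3′ on the gene's strand, on NCBIM37 (mm9). Saa3 (chr7:53970997-53971296, minus strand) and Ifit3 (chr19:34657771-34658070, plus strand) are the leading raised genes with an interferon-stimulated response element (ISRE) match. Slc16a14 (chr1:84931651-84931950, minus strand) and Krt80 (chr15:101198095-101198394, minus strand) have the largest falls among genes with a value of 100 or more. Capitals mark kappa B (GGGNNNNNCC) and ISRE core (GAAANNGAAA) matches on either strand in the raised genes, and matches to any of the 6 motifs searched in the lowered genes.
Saa3: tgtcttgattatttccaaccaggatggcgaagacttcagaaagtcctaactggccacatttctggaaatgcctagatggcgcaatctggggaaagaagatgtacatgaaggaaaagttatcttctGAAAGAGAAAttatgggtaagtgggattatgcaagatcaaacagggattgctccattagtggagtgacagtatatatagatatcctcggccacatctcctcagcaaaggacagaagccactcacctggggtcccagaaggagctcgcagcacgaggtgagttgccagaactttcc
Ifit3: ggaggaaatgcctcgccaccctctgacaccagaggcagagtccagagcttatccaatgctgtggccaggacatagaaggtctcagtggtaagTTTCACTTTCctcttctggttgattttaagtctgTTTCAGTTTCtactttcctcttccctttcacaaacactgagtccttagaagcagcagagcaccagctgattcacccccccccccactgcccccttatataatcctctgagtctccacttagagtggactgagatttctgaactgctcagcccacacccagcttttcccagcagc
Slc16a14: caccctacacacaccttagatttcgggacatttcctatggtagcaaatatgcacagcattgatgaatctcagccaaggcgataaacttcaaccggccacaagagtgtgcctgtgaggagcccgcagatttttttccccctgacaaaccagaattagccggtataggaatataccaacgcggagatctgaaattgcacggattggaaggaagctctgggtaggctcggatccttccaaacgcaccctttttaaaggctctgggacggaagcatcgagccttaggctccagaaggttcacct
Krt80: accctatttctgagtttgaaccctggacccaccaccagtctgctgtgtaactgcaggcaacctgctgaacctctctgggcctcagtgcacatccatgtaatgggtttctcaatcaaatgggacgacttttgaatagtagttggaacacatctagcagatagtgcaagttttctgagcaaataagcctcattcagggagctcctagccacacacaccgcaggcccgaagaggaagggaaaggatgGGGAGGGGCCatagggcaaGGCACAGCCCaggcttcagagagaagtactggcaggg

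The Ifit3 window held 2 ISRE core matches, at bases -158 to -149 and -124 to -115 from the start site, and an AP-1 match at -58. The Saa3 window held 1 ISRE core match at -125 and a C/EBP match at -99. Krt80 had 2 kappa B matches around its start site, and Slc16a14 had no match to any motif searched.

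Across the kept genes, 5905 of 5910 had a promoter window. The ISRE core stood in 54 of 513 raised promoters (10.5%), in 6 of 463 lowered promoters (1.30%) and in 178 of 4929 promoters of genes under 2-fold (3.61%). Over all kept genes the share was 4.03%, and among the 214 genes raised at least 4-fold it was 18.7%. The AP-1 motif (TGANTCA) was held by 9.36% of raised, 7.99% of lowered and 4.71% of the other promoters. The kappa B motif is short and loose and stood in 64.7% of raised, 62.2% of lowered and 66.9% of the other promoters. The GAS motif of STAT proteins (TTCNNNGAA) was held by 9.75%, 7.13% and 6.98% in the same order, the Ets core (GGAAGT) by 24.8%, 25.9% and 29.4%, and the C/EBP motif (TTGCNNAA) by 10.3%, 10.6% and 8.24%. Over all kept genes these shares were 66.4% for kappa B, 5.37% for AP-1, 7.23% for GAS, 28.7% for Ets and 8.60% for C/EBP. A match is a description of letters and not a bound site.

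**Figure D1:**
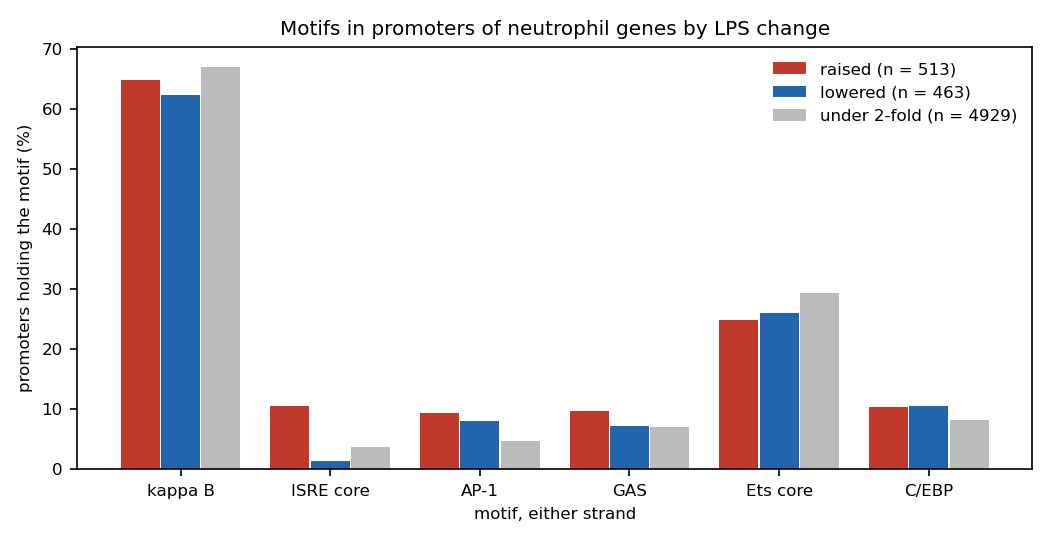
Share of promoter windows (y axis, percent) that hold each of 6 motifs on either strand (x axis), for genes raised, lowered or changed under 2-fold by LPS in neutrophils. The ISRE core bar is 10.5% for raised and 1.30% for lowered genes, while the kappa B bars lie between 62.2% and 66.9%.

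In CpG content raised and lowered genes lay nearer to each other than to the rest. The median ratio of observed to expected CpG was 0.511 in raised promoters (quartiles 0.234 and 0.773), 0.585 in lowered promoters (0.272 and 0.826) and 0.779 in those of genes under 2-fold (0.566 and 0.923). The ratio was lower again among genes changed at least 4-fold, at 0.422 for raised and 0.411 for lowered genes. The 40 interferon-stimulated genes had a median of 0.307.

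Raised and lowered genes differed in the size of their changes. The median log2 change was 1.75 among raised genes and -1.45 among lowered genes, against -0.03 over all kept genes. A change of at least 4-fold was seen in 215 raised and 108 lowered genes, and a log2 change of 5 or more in 31 raised and 3 lowered genes. Among the raised genes 12 were listed at 0 untreated, and among the lowered genes 5 were listed at 0 with LPS.

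Low genes passed 2-fold more often in both directions. Among 720 genes whose 2 values averaged under 50, 18.5% were raised and 17.9% lowered. Of 2029 genes averaging from 200 to 1000, 5.08% were raised and 5.22% lowered, and of 2227 genes at 1000 or more the shares were 8.76% and 6.87%. At the minimum, 2810432L12Rik (3.5 untreated, 10 with LPS) was just kept and Armcx1 (3.5 and 9.5) was just left out.

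**Figure D2:**
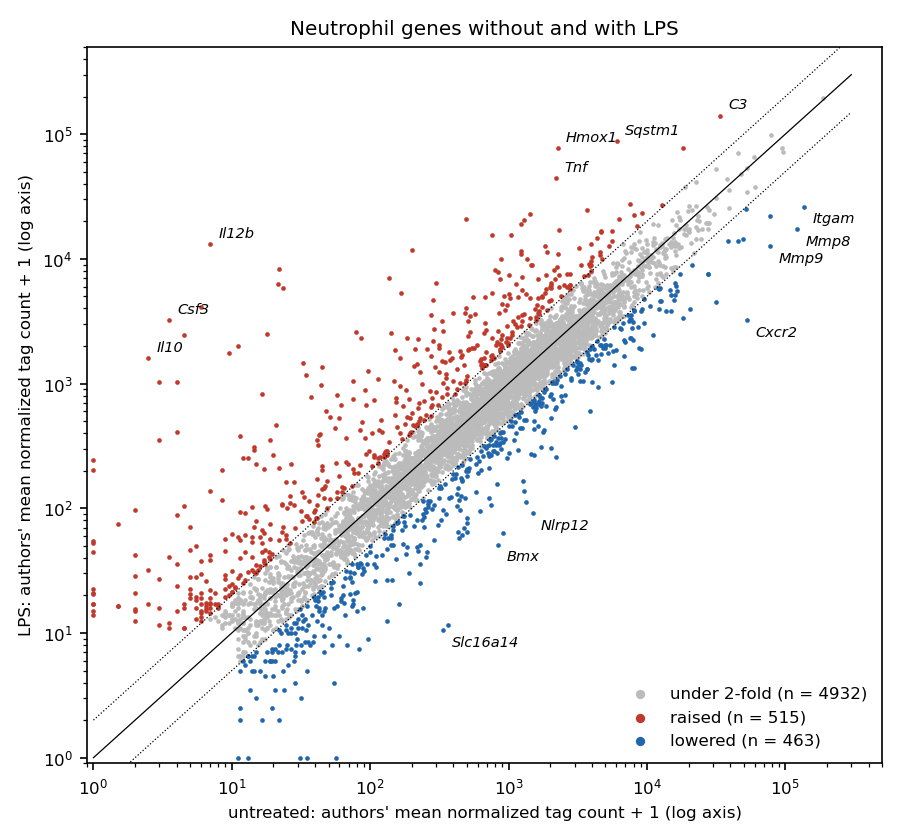
Each point is 1 of 5910 neutrophil genes, with its value + 1 untreated (x axis) and with LPS (y axis) on log axes, in the authors' mean normalized tag count. Red points were raised and blue points lowered at least 2-fold (beyond the dotted lines), and the raised genes reach further from the diagonal than the lowered ones, as with Il12b from 6 to 13131.

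The largest rise was that of Il12b (chr11:44213565-44227535), which encodes the p40 chain shared by IL-12 and IL-23. Its value was 6 untreated and 13131 with LPS, a log2 change of 10.87. The partner chains of p40 rose as well. Il23a, the p19 chain of IL-23, was at 8.5 untreated and 1742 with LPS (log2 change 7.52). Il12a, the p35 chain of IL-12, was at 147 and 1054 (2.83). Both chains of IL-27 followed, with Ebi3 at 1866.5 and 7459 (2.00) and Il27 at 90 and 893 (3.30).

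Interleukins rose as a list, with 8 of 10 kept members raised, none lowered and a median log2 change of 3.01. The list was written with 37 interleukins, of which only 12 had deposited values. Il10, the anti-inflammatory interleukin that the study also added as an agent, was at 1.5 untreated and 1601 with LPS (log2 change 9.32). Il13 rose from 41.5 to 387 and Il18 from 15.5 to 51.5. Members under 2-fold were Il15 (79 and 104.5) and Il4 (80 and 152.5). All 4 kept chemokines rose, but of 38 chemokines written in the list only 7 had deposited values. Other lists written by name were also present only in part, such as 40 of 73 interferon-stimulated genes. The kept chemokines were Ccl22, a ligand of CCR4 (491 untreated, 20912.5 with LPS), Ccl17, which binds the same receptor (999 and 5261), Cxcl16 (96 and 1271) and Cx3cl1 (18 and 349).

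Of 12 growth and colony-stimulating factors, 10 rose and 1 fell, with a median log2 change of 1.81. Csf3, the granulocyte colony-stimulating factor that drives neutrophil production, was at 2.5 untreated and 3243 with LPS (log2 change 9.86). Gdf15, a stress-induced member of the TGF-beta superfamily, was at 10 and 2008.5, and Lif at 10.5 and 92. Csf2, which encodes GM-CSF, was listed at 0 untreated and stood at 16 with LPS. Tgfb3 fell, from 22.5 to 4. Among 6 TNF family ligands 3 rose and 1 fell. Tnf (chr17:35336326-35338952) rose from 2191 to 44593 (log2 change 4.35), Lta from 112 to 1079 and Tnfsf9 from 32.5 to 122. Tnfsf14, which encodes the ligand LIGHT, fell from 1342 to 510.

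Acute phase and antimicrobial proteins rose in 8 of 10 kept cases, with a median log2 change of 2.56. Saa3, a serum amyloid A protein, was at 5 and 4125.5 (log2 change 9.43). The complement genes Cfb and C3 rose from 3 to 1030 and from 33750.5 to 140658.5. Nos2, the inducible nitric oxide synthase, was at 2 untreated and 349.5 with LPS. Cfp, which encodes properdin, a stabilizer of the complement convertase, fell from 9599 to 4725, a log2 change of -1.02 that lies at the threshold.

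Interferon-stimulated genes rose almost throughout the list. Of 40 kept members 38 rose and none fell, with a median log2 change of 3.05, against 8.71% of all kept genes raised. The list was chosen with earlier results of these data known, so its share is partly set by that choice. Ifit3 was at 3.5 untreated and 2463 with LPS, Ifit1 at 21 and 8220, Oasl1 at 20.5 and 6340, and Usp18, the protease that removes ISG15 from proteins, at 22.5 and 5871.5. The members under 2-fold were Irf1 (1577 and 3086.5, log2 change 0.97) and Oasl2 (5030.5 and 5795.5). The ISRE core stood in 26 of the 40 promoters (65.0%). These 40 promoters are also part of the counts over raised and other promoters above, so the 2 observations are not independent. The RNA sensors Ifih1 and Ddx58 rose from 299.5 to 6415.5 and from 1352 to 9992, and the transcription factor gene Stat2 from 1135 to 6294. Oas1, Gbp, Trim30 and Ifit3 have near-identical copies (I830012O16Rik for Ifit3), between which the counting could split reads. Of 20 Trim proteins 8 (40.0%) rose and 1 (5.0%) fell, against 8.71% and 7.83% of all kept genes. The fall was that of Trim7 (107 and 25), and Trim21 rose from 217 to 1430.

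NF-kB subunits and regulators rose in 10 of 20 cases and fell in none, with a median log2 change of 1.07. The subunits Nfkb1, Nfkb2 and Rel rose from 6289 to 20692, 1824 to 12684 and 559 to 1926. The largest rises on this list were of other members. Nfkbiz, an atypical inhibitor-like cofactor, was at 758.5 and 15670.5 (log2 change 4.37), Tnfaip3, the deubiquitinase A20, at 1224.5 and 19019.5 (3.96), and the kinase Ikbke at 1284.5 and 20308.5 (3.98). Tank (2389 and 3888) and Tnfaip2 (8943.5 and 16529) were among the 10 under 2-fold. In the Toll-like receptor pathway 8 of 21 members rose, among them Tlr9 (294 and 1349.5), Tlr1 (170.5 and 665), the cytosolic sensor Nod2 (392.5 and 1615) and Casp4, the mouse caspase-11 gene, which senses cytosolic LPS (760.5 and 5321.5). Members that fell were Tlr8 (257.5 and 44) and Il18rap, a chain of the IL-18 receptor (8813 and 1928).

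Of 19 genes of the NADPH oxidase and oxidant handling 6 rose, 13 stayed under 2-fold and none fell, with a median log2 change of 0.62. Hmox1 (chr8:77617490-77624495), the heme-degrading enzyme, was at 2258 untreated and 77414 with LPS, a log2 change of 5.10. Prdx1 rose from 3694.5 to 24706, Srxn1 from 1480.5 to 8991, Gclc from 1423 to 4839 and Nqo1 from 838 to 2631. Cybb, the catalytic oxidase subunit, was at 94864 and 77304.5, and the oxidase GTPase Rac2 at 45736 and 70281.5. Sqstm1, the autophagy receptor p62, rose from 6031.5 to 88380.5. In autophagy 4 of 27 genes (14.8%) rose and 2 (7.41%) fell, against 8.71% and 7.83% of all kept genes.

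The 10 largest gains in value were led by C3, Sqstm1, Hmox1, Clec4d and Tnf, and the list also held 3 genes under 2-fold, Rac2, Cd53 (31699 and 52789.5) and Ftl1 (78367.5 and 99040). The 10 largest losses were Itgam, Mmp8, Mmp9, Myh9, Cxcr2, Vim, Clec7a, Emilin2, Cap1 and Evi2b, all past 2-fold. Of the largest losses, 5 fell by more than 4-fold.

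**Figure D3:**
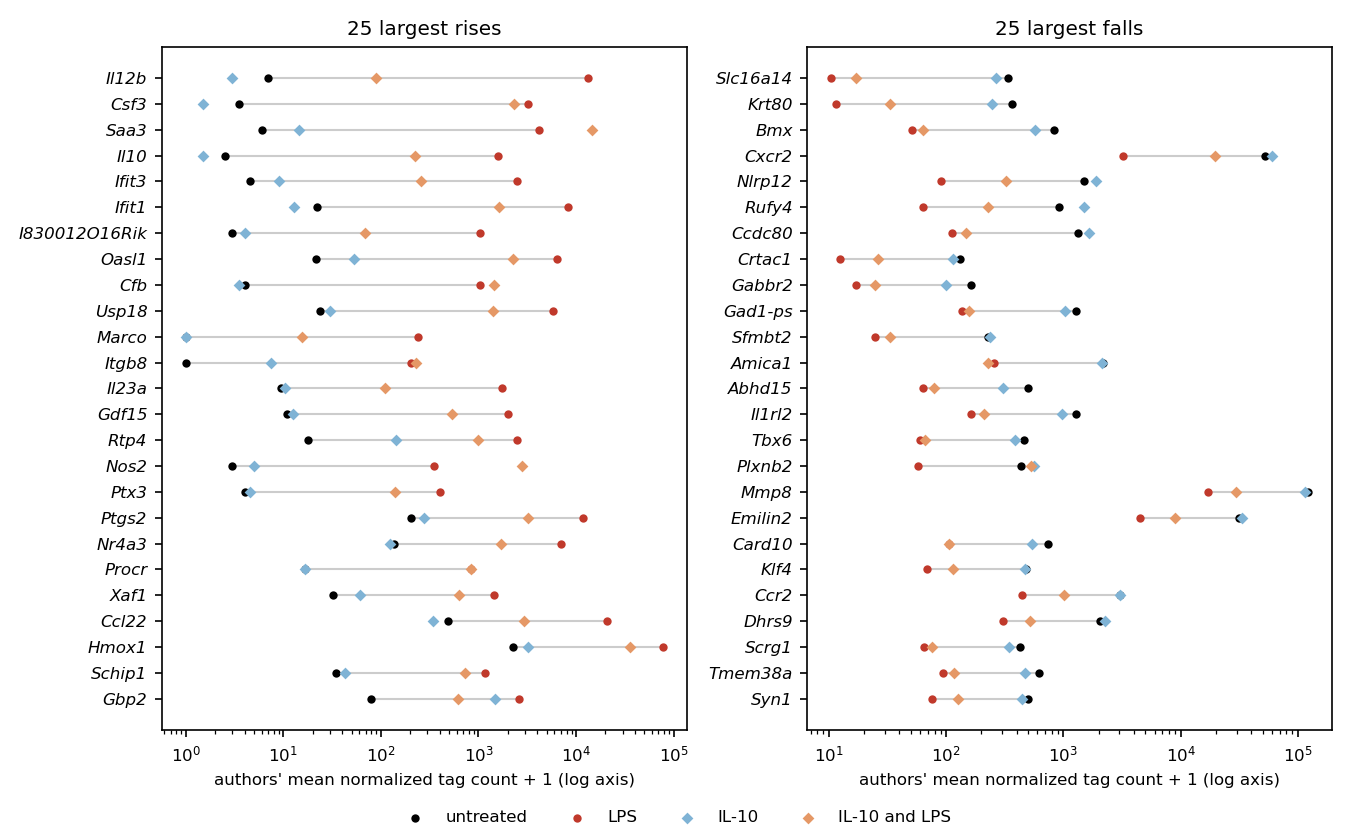
The 25 largest rises and 25 largest falls among genes with a value of 100 or more, with each gene's value + 1 (x axis, log scale, authors' mean normalized tag count) in the 4 neutrophil groups. Black and red dots are untreated and LPS, diamonds the groups with IL-10, and in most falls both groups with LPS lie left of both groups without it, Plxnb2 being an exception at 562.5 with IL-10 and 526 with IL-10 and LPS.

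On the lowered side, genes that mark neutrophils stood among the largest losses. Cxcr2 (chr1:74200563-74207812), the receptor for the CXC chemokines that call neutrophils out of the marrow and into tissue, fell from 52728 to 3210, a log2 change of -4.04. Mmp8 (chr9:7558429-7568486), the neutrophil collagenase, fell from 122455 to 17265 (-2.83), and Mmp9 (chr2:164766280-164781350), gelatinase B of the tertiary granules, from 77310.5 to 12701.5 (-2.61). Itgam (chr7:135206154-135271674), the CD11b chain of the integrin Mac-1, fell from 136889 to 26225 (-2.38).

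Granule genes did not move as 1 list. Of 17 kept members 5 (29.4%) rose and 3 (17.6%) fell, against 8.71% and 7.83% of all kept genes. The median log2 change was 0.19. Beside Mmp8 and Mmp9 the lowered member was Retnlg (20356 and 3943.5). Genes of the primary granules stayed under 2-fold, with Mpo, myeloperoxidase, at 22826 and 20675 and Elane, neutrophil elastase, at 13402 and 10179. Members that rose were the protease inhibitor Slpi (4662.5 and 16761), Chi3l1 (5587.5 and 16760) and the cystatin-like genes Stfa2, Stfa3 and BC100530, whose copies are near-identical, so that their reads may have been split.

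The labelled cell type was checked against its markers. Of 18 neutrophil markers 8 were in the table, and all 8 were above 0 in the 4 groups, from 70.5 for Ly6g with IL-10 and LPS to 136889 for untreated Itgam. The sum of the 8 was 446128 untreated, 94357.5 with LPS, 420190 with IL-10 and 143836.5 with both, and 5 of the 8 fell with LPS without IL-10. Ly6g itself was at 161.5 and 158.5. The 7 monocyte and macrophage markers summed to 33038 untreated and 59752.5 with LPS, and moved apart. Emr1 (F4/80) rose from 4346 to 14667.5 and Marco was listed at 0 and stood at 241, whereas Ccr2 fell from 3043.5 to 444. Cd68 was at 2788 and 3140 and Ly6c2 at 22771 and 41222. B cell markers were present, with 5 genes that summed to 6686.5 untreated and 4948 with LPS, Cd79b at 2143.5 and 1195 among them. The 2 T cell genes stood at 9.0 to 37.0, and 2 eosinophil genes summed to 20099.5 and 19648, most of it Epx (19128.5 and 18734). The 3 mast cell and basophil genes summed to 4927.5 and 3051, with Tpsb2 at 0 and 3, the 3 progenitor genes to 6453.5 and 3767, and the 7 erythroid genes to 10362.5 and 9806.5. Dendritic cell genes Itgax and Xcr1 summed to 3106 and 3564.5, and Itga2b of megakaryocytes was at 1122.5 and 1726.5. The part of other cell types in the changes was not tested.

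Receptors split in both directions. Of 35 receptors for attractants and adhesion 10 (28.6%) rose and 11 (31.4%) fell, against 8.71% and 7.83% of all kept genes. The median log2 change was -0.09. The lowered members, beside Cxcr2, included the chemoattractant receptors Ccr2, Ccr1 (27739.5 and 7602.5), Cxcr4, which retains neutrophils in the marrow (7770 and 2782), Cxcr1 (94.5 and 35) and C3ar1, the C3a receptor (1558.5 and 674), while Ccr3, the eotaxin receptor, stayed under 2-fold (971 and 914). Il1r2, a decoy receptor for IL-1, fell from 18376.5 to 3350.5, Selplg, the selectin ligand PSGL-1, from 15669.5 to 4680, and Clec7a, the beta-glucan receptor dectin-1, from 45878 to 13988. The integrin beta chain Itgb2 was at 27536 and 17251.5 and the GM-CSF receptor chain Csf2rb at 26721 and 19250, both under 2-fold.

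The raised members of the same list included lectins, an adhesion ligand and metabolite receptors. The C-type lectins Clec4e (Mincle) and Clec4d rose from 1439 to 22791 and from 18242.5 to 77341. Icam1, an adhesion ligand of leukocyte integrins, rose from 793.5 to 8199, and the adenosine receptor Adora2a from 74.5 to 1050.5. Niacr1, a receptor for nicotinic acid, rose from 2305.5 to 16986. Both chains of the IL-10 receptor rose, with Il10ra at 2380 and 5042 and Il10rb at 2034.5 and 5807.5.

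A list of 57 G protein-coupled receptors shares Cxcr2, Ccr2, Ccr1, Cxcr4, Cxcr1, Ccr3, P2ry2, Adora2a and Adora3 with the list above. In it 14 (24.6%) fell and 11 (19.3%) rose, against 7.83% and 8.71% of all kept genes. The median log2 change was -0.18. P2ry6, a nucleotide receptor, fell from 502 to 82, Cysltr1, a leukotriene receptor, from 218.5 to 48, Gpr55 from 583 to 133, and S1pr1, the sphingosine 1-phosphate receptor, from 426.5 to 104. Raised members were Gpr84, a receptor for medium-chain fatty acids (1257 and 7126), Ccr7, which guides cells to lymph nodes (228.5 and 1235.5), and Gpr85 (21 and 209.5).

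Cytoskeletal and motility genes leaned to the lowered side. Of 53 kept members 8 (15.1%) fell and 2 (3.77%) rose, against 7.83% and 8.71% of all kept genes, 34 had a log2 change below 0, and the median was -0.34. Myh9, a nonmuscle myosin heavy chain, fell from 77310 to 22024.5, and Ssh2, a phosphatase of the actin-severing protein cofilin, from 9030 to 1902. Coro2a fell from 12243.5 to 3987.5, Cap1 from 51884.5 to 25311 and Rgs2, a regulator of G protein signalling, from 3875 to 606.5. The intermediate filament gene Vim, on no list, fell from 49410.5 to 14476. Rgs1 and Myo10 rose, from 92.5 to 672 and from 76 to 192. Actr3, a subunit of the Arp2/3 complex, was at 59701 and 66180.5, and Tmsb4x at 96055 and 71553.5.

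Immunoreceptor and Src-family signalling had the lowest median of the lists, at -0.49, although only 4 of 32 members (12.5%) fell and 4 (12.5%) rose. Of all kept genes 7.83% fell and 8.71% rose. Between the groups with IL-10, 1 member of the list was lowered and 3 were raised. The members lowered without IL-10 were the inhibitory receptors Clec12a (27627 and 7599) and Lilrb3 (17448.5 and 7603.5), the lipid phosphatase Inpp5d, known as SHIP-1 (7440 and 3199.5), and the adaptor Dok3 (5067 and 2025). Ptpn6 (12013.5 and 9595.5) was among the members under 2-fold. Among the members raised without IL-10 were Pik3ap1 (3237.5 and 12144), Ptprj (2298.5 and 5900) and Pik3r3 (9 and 23.5). Of 28 MAP kinases, Dusp phosphatases and AP-1 genes 9 (32.1%) rose and 5 (17.9%) fell. Dusp16 (875.5 and 10032.5), Map3k8 (493.5 and 4025), Junb (2278 and 10901.5) and Maff (164.5 and 1611.5) rose, while Map3k3 (2546.5 and 813), Mapk14, which encodes p38 alpha (7678 and 3521.5), Mapk3, which encodes ERK1 (7330.5 and 3519), and Dusp6 (3747.5 and 1686) fell. The falls of Mapk14 and Mapk3 lie near the threshold, with log2 changes of -1.12 and -1.06. Between the groups with IL-10, 9 members of this list were raised and none was lowered, with Mapk14 at -0.75 and Mapk3 at -0.89.

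The 25 largest falls among genes with a value of 100 or more had untreated values from 130.5 for Crtac1 to 122455 for Mmp8. Slc16a14, an orphan member of the monocarboxylate transporter family, fell from 337.5 to 9.5 (log2 change -5.01), and the keratin gene Krt80 from 366 to 10.5 (-5.00). Bmx, a Tec-family tyrosine kinase of myeloid cells, fell from 838.5 to 50 (-4.04), and Nlrp12, an inhibitory NOD-like receptor, from 1490 to 90 (-4.03). Others among the 25 were the adhesion molecule gene Amica1 (2186 and 258), Il1rl2, the IL-36 receptor (1271 and 163), Ccdc80 (1345 and 110.5), Rufy4 (913 and 62.5), Emilin2 (31583 and 4471.5), Dhrs9 (2041.5 and 305.5) and Card10 (744 and 105.5). Gad1-ps, a pseudogene (1284.5 and 137), may share reads with its parent gene.

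Transcription factors moved both ways, 10 of 69 (14.5%) up and 8 (11.6%) down, against 8.71% and 7.83% of all kept genes. The nuclear receptors Nr4a3 and Nr4a1 rose from 135 to 7076 and from 167 to 5349.5, Ets2 from 1236 to 11600 and Tgif1 from 923.5 to 5083. Klf4, a factor of monocyte differentiation, fell from 479 to 68, the retinoic acid receptor Rara from 6794 to 1654.5, and the vitamin D receptor Vdr from 153.5 to 38. Zinc finger proteins of the Zfp and Zbtb families were the longest list, and 12 of 189 (6.35%) fell and 4 (2.12%) rose, against 7.83% and 8.71% of all kept genes. Of the 189, 133 (70.4%) had a log2 change below 0, against 52.8% of all kept genes, and the median was -0.18. Zfp831 (715.5 and 120.5) and Zfp652 (2386 and 798.5) fell. Of 95 chromatin genes 5 (5.26%) fell, Phf21a (1754 and 692.5), Hdac10 (261 and 114), Cbx7 (915.5 and 409.5) and Hdac7 (2217 and 1011) among them, and 2 (2.11%) rose, Tet2 (1407 and 2967) and the demethylase Kdm6b (3937.5 and 8056.5). Both shares lie below those of all kept genes. Between the groups with IL-10, 1 chromatin gene was lowered and 1 was raised.

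Lysosomal, lipid and transport lists held called genes in both directions. Of 44 lysosomal genes 7 (15.9%) fell and 5 (11.4%) rose, against 7.83% and 8.71% of all kept genes, with a median of 0.02. Lyst, the gene whose loss gives the large granules of Chediak-Higashi syndrome, fell from 14926 to 3840.5, Gm2a from 4458 to 1532 and Ctse from 487 to 120.5, while Acp5 (162.5 and 955) and Ctsz (4572.5 and 10806.5) rose. Of 50 lipid and eicosanoid genes 7 rose and 4 fell, the latter close to the 7.83% of all kept genes. Ptgs2, cyclooxygenase-2, rose from 200 to 11700 and Ptges, a prostaglandin E synthase, from 347.5 to 1500.5, whereas Alox5, the lipoxygenase that starts leukotriene synthesis, fell from 14759.5 to 5589 and Lpl from 7552 to 3312. Of 102 solute carriers 13 (12.7%) rose and 8 (7.84%) fell, the latter again at the share of all kept genes. The glucose transporter Slc2a3 fell from 5656.5 to 1834 and Slc2a6 rose from 1592 to 4232. Among glycolytic and carbon metabolism genes 3 of 40 (7.5%) rose and 2 (5.0%) fell, both below the shares of all kept genes. Gapdh was at 38006 and 43457.

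Lists of the general machinery of the cell stayed under 2-fold. None of 49 respiratory chain genes, 27 mitochondrial ribosome genes, 15 cytosolic ribosomal proteins, 26 translation factors, 9 aminoacyl-tRNA synthetases, 18 proteasome subunits or 31 DNA repair genes passed it. Their log2 changes lay between -0.69 and 0.88, with medians from -0.22 for DNA repair to 0.46 for the proteasome. Of 47 cell cycle genes 1 rose, Ccnd2 (1737 and 4906.5), and 1 fell, the inhibitor Cdkn1b (3343 and 1409.5). Of 25 apoptosis genes 3 rose and 3 fell, with Fas at 1744 and 4108, Birc3 at 2239.5 and 8616.5 and Casp6 at 437 and 116.5. Chaperones had 5 of 33 raised, led by the near-identical pair Hspa1a (20 and 467) and Hspa1b (60.5 and 668), and none lowered. Of 17 genes of costimulation and antigen presentation 6 rose, Cd40 (290 and 2718.5), Cd80 (455.5 and 1631.5) and Cd86 (244 and 728.5) among them, and none fell. In STAT, SOCS and cytokine signalling 7 of 24 (29.2%) rose and none fell. F-box and cullin genes had 3 of 32 (9.4%) raised, near the share of all kept genes, and 5 (15.6%) lowered. Splicing and RNA-binding proteins had 4 of 101 (3.96%) raised and 3 (2.97%) lowered, both below the shares of all kept genes. Ubiquitin-specific proteases had 2 of 21 (9.52%) raised, near the share of all kept genes, and none lowered.

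**Figure D4:**
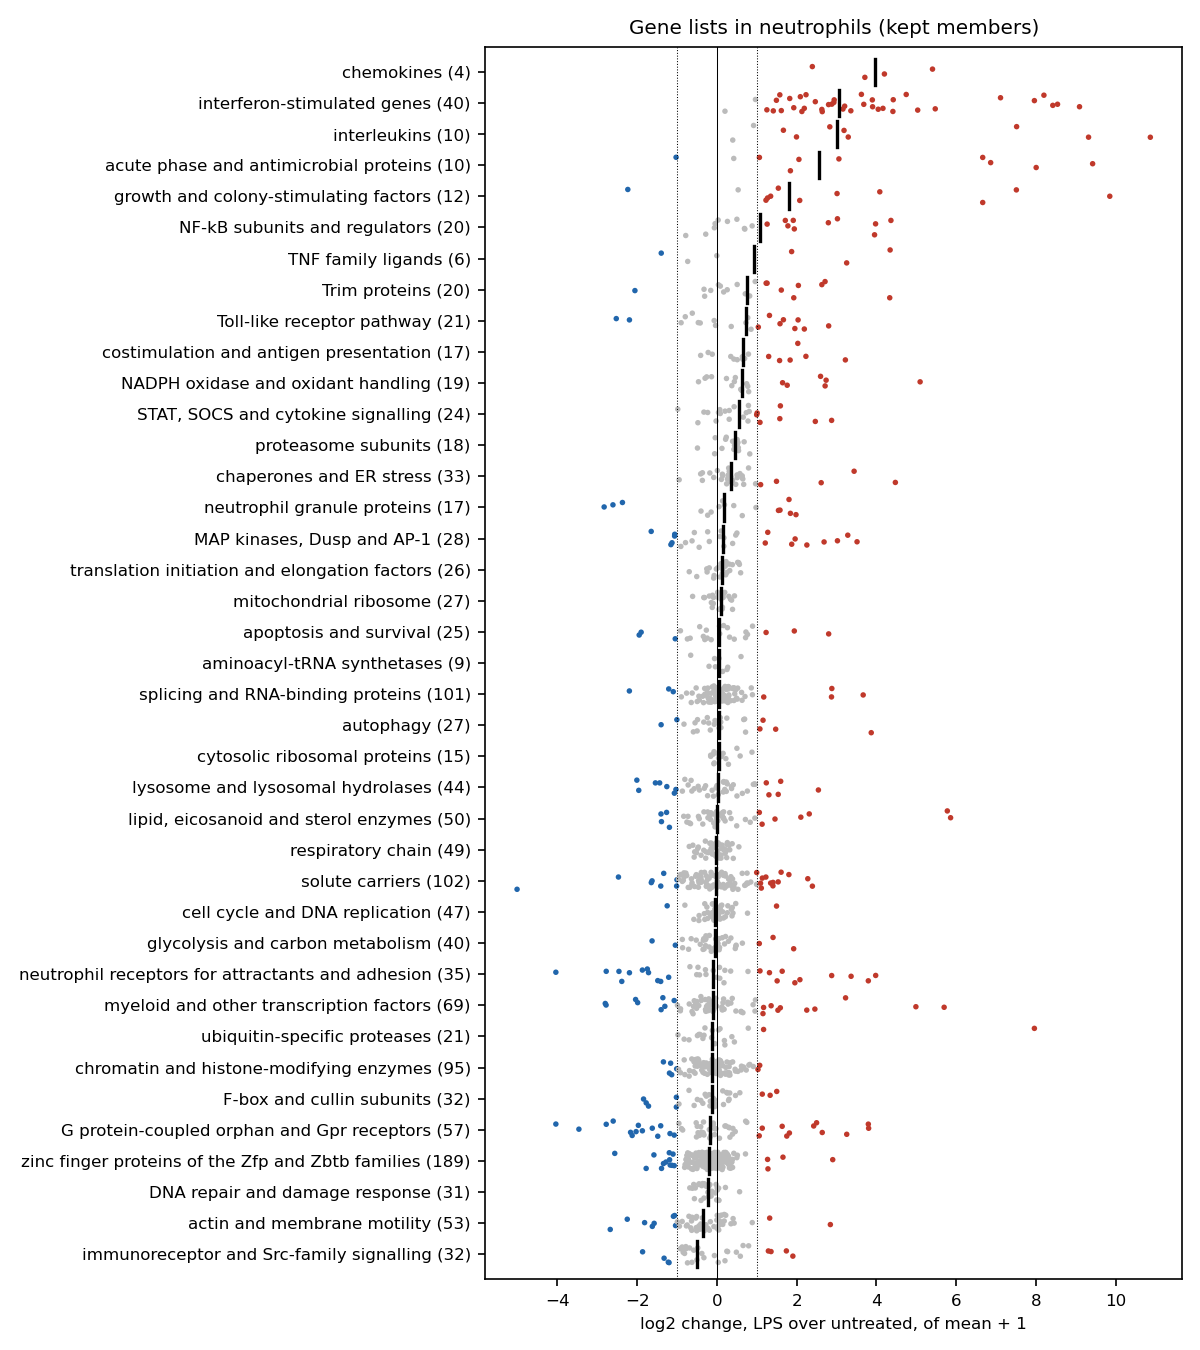
Log2 change with LPS (x axis) of every kept member of 39 gene lists (y axis, with the number of kept members), each point a gene, red raised, blue lowered and grey under 2-fold, with a black bar at the list's median. Chemokines and interferon-stimulated genes have medians of 3.96 and 3.05, and immunoreceptor signalling and motility genes have the lowest medians, -0.49 and -0.34.

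The same contrast was available in 4 other libraries, from cells given IL-10 before LPS and cells given IL-10 alone. There 342 of 5863 kept genes (5.83%) were raised and 328 (5.59%) lowered. Of 476 raised genes that were kept in both contrasts, 251 (52.7%) were again raised, 451 had the same direction and 4 were lowered. Of 453 lowered genes, 240 (53.0%) were again lowered, 433 had the same direction and 1 was raised. The repeated raised genes are 73.4% and the repeated lowered genes 73.2% of the genes called there. Across 5824 genes, which are not independent, the log2 changes had a Pearson correlation of 0.83. This contrast differs from the first by the IL-10 in both of its groups and is no replicate of it.

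Median log2 changes were smaller with IL-10 in both groups, 1.06 for the raised and -1.03 for the lowered genes. On the raised side Il12b was at 2 with IL-10 and 88.5 with both (log2 change 4.90, against 10.87 without IL-10), and Il10 at 0.5 and 221. Csf3 (0.5 and 2294.5) and Saa3 (13.5 and 14657.5) reached log2 changes of 10.58 and 9.98, and Nos2 was at 4 and 2797. On the lowered side Slc16a14 was at 264 and 16, Mmp8 at 115516 and 29556 and Mmp9 at 94912 and 18626. Cxcr2 was at 59650 and 19833, a log2 change of -1.59 against -4.04 without IL-10. Plxnb2, at 434.5 and 57 without IL-10, was at 562.5 and 526 with it.

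With IL-10 in both groups 20 of the 40 interferon-stimulated genes were raised and 3 were lowered, with a median log2 change of 1.05 against 3.05. Of 11 growth and colony-stimulating factors 3 were raised there, and all 4 chemokines were, with a median of 2.18 against 3.96. Whether the change of a list differed between the contrasts was not tested. The starting values differed too, since 14 of the 40 were at least 2-fold higher with IL-10 alone than untreated and 1 was lower, whereas over all kept genes 1.12% were raised and 0.652% lowered by IL-10 alone. Gbp2 was at 78 untreated, 2595 with LPS, 1484 with IL-10 and 610 with both, so its log2 change turned from 5.04 to -1.28. Of the 40 genes 27 were at least 2-fold higher with LPS alone than with IL-10 and LPS. The groups being means of 2 libraries, whether 1 library set the values with IL-10 alone was not tested.

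**Figure D5:**
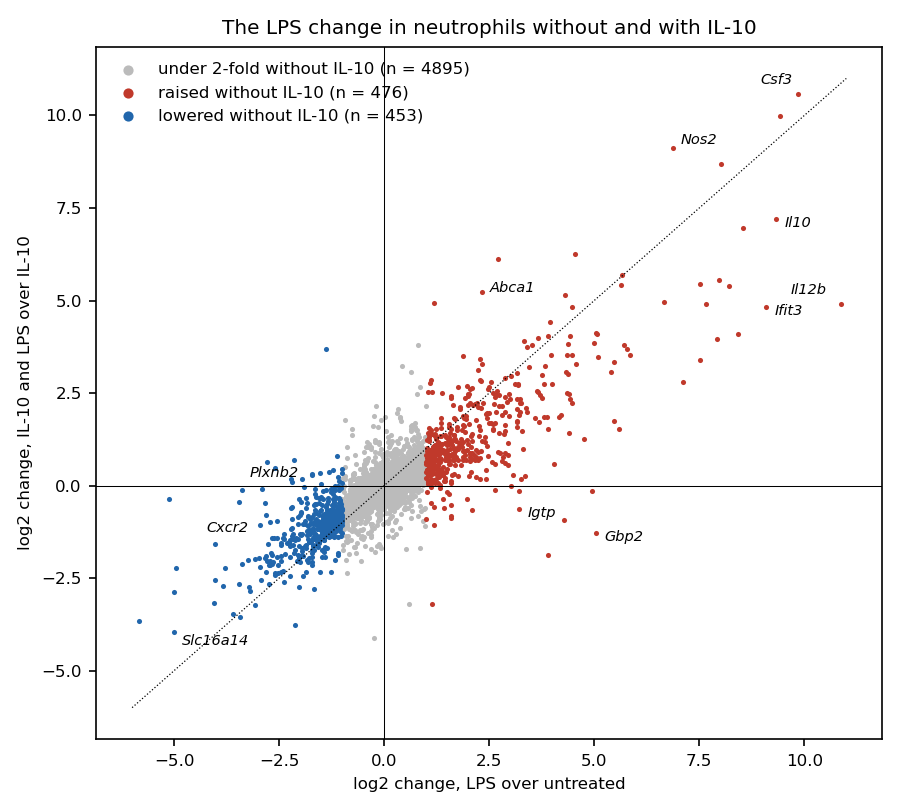
Log2 change with LPS without IL-10 (x axis) and with IL-10 in both groups (y axis) for 5824 neutrophil genes, coloured by the call without IL-10, with the dotted line at equal change. Most raised and lowered genes keep their direction (451 of 476 and 433 of 453), and Gbp2 lies below 0 on the y axis at -1.28.

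Macrophages and splenic dendritic cells (sDCs) given the same LPS treatment were set beside neutrophils. In macrophages 12.6% of 6005 kept genes were raised and 14.7% lowered, and in sDCs 8.98% of 5990 were raised and 11.5% lowered. Of 477 genes raised in neutrophils and kept in macrophages, 291 (61.0%) were also raised there, which is 44.2% of the genes raised in macrophages, and 11.7% of the genes kept in both cell types were raised in macrophages. For sDCs the shared raised genes were 211 of 469 (45.0%, and 44.4% of the sDC genes), with 8.37% of common genes raised in sDCs. Of 394 lowered genes 193 (49.0%) were lowered in macrophages, 23.9% of the macrophage genes, where 14.4% of common genes were lowered. Of 417 lowered genes 176 (42.2%) were lowered in sDCs, 29.2% of the sDC genes, where 10.6% of common genes were lowered.

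The values of leading neutrophil genes were set beside those of the other cell types. Cxcr2 was at 28 and 18 in macrophages and 136 and 74.5 in sDCs, untreated and with LPS, and at 1265 and 973 in eosinophils. Bmx was at 44 and 0 and at 25 and 0, and Nlrp12 was listed at 0 in both macrophage groups and stood at 23 and 16 in sDCs and at 1127.5 and 800.5 in eosinophils. On the raised side Il23a was at 3 and 188 in macrophages and 4 and 45.5 in sDCs, against 8.5 and 1742 in neutrophils. Hmox1 was at 18905.5 and 13100.5 in macrophages and at 12266 and 7769.5 in sDCs, both higher untreated than the 2258 of neutrophils, where it rose to 77414. Whether these changes differ between cell types could not be tested on means.

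Some genes were called in opposite directions. Of 477 genes raised in neutrophils 27 were lowered in macrophages, where 14.4% of common genes were lowered. Of 469 raised genes 22 were lowered in sDCs, where 10.6% of common genes were lowered. Of 394 lowered genes 24 were raised in macrophages, where 11.7% of common genes were raised. Of 417 lowered genes 23 were raised in sDCs, where 8.37% of common genes were raised. Cldn1, a tight junction gene, rose in neutrophils from 512 to 3179.5 and was at 718.5 and 213 in sDCs. Fnip2 rose from 1548.5 to 3986.5 and was lowered in both other cell types, at 9430 and 2985 in macrophages and 1074 and 394 in sDCs. Cdk18 rose from 178 to 474 and was at 3081.5 and 839 in macrophages. In the other direction Coro2a fell from 12243.5 to 3987.5 and was at 2769.5 and 8189 in sDCs, and Lass6, a ceramide synthase, fell from 7700.5 to 2305 and was at 3203 and 15094 in macrophages.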

How the data were processed

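RNA from 2 libraries of each neutrophil group was aligned by the authors to Ensembl mouse transcripts (mm9) with RSEM 1.2.1 and Bowtie 0.12.9, the tag counts were normalized for GC content with EDASeq, and the replicates were averaged. The deposited values are therefore a score per transcript and group, in steps of 0.5 and with the same highest value, 185338, in all 18 groups. They carry no error and no depth, so no counting interval could be given and 0 means listed at 0.

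The table held 17015 complete lines and 1 broken line, which was left out. Of the complete lines 22 (0.129%) lacked a gene name and were left out, which left 16993 transcripts of 6509 genes, part of the transcriptome. The authors' own differential test was not used, and no column of the table holds a comparison.

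The calculations ran in pandas 2.3.3 and numpy 2.4.6 under Python 3.11.15, and figures were drawn by matplotlib 3.10.9. A pseudocount of 1 was added, which understates the change of low genes. The calling step was run on simulated counts with set changes and counting noise but no variation between mice. That run checked the code and not the calls made here. Promoters and positions were read from NCBIM37 with the GENCODE vM1 annotation, of which 16791 transcripts matched. Genes named are the 25 largest rises and falls and the 10 largest gains and losses at a value of 100 or more, up to 4 raised, 4 lowered and 2 other members of each list, cell type markers, 5 genes of opposite call in other cell types per direction, those at the minimum and 5 genes with transcripts apart. List members named beyond these numbers were chosen after their values were seen. A few items are not reported here. The members and lists were chosen with earlier results of these data known. Replicates come from independent mice per the study's methods. Other pseudocounts, minimums, scalings, folds and transcript choices were tried as alternatives.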

Additional observations from a re-analysis of the deposited data

How the results depend on the processing

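The 515 raised and 463 lowered genes became 872 and 1018 at 1.5-fold and 215 and 108 at 4-fold. Counted over 14449 single transcripts, 2127 were raised and 1952 lowered. With IL-10 in both groups, 342 and 328 became 661 and 783 at 1.5-fold. The other pseudocounts, minimums and scalings kept these counts within 1.5 times. The group totals were already close, at 10458285.5 untreated and 10274815.5 with LPS, as were the median transcript values, at 70.5 and 73.0. Single values recur between genes and groups, such as 52789.5 for Cd53 with LPS and for Clec7a with IL-10. The highest value is also the same in every group. The scaling of the deposited values may thus have set the totals and medians, which was not tested. A shift in total RNA between the groups could not be seen. Setting the median change to 0 or the totals equal could therefore move few calls and is a weak check. Of 217 named genes past 2-fold and with no group at 0, 214 stayed past 2-fold with the median change set to 0, 214 with equal totals, 217 with a pseudocount of 0.5, 203 with a pseudocount of 10 and 211 with only the transcript of highest mean. With IL-10 in both groups 148 of the 217 stayed past 2-fold the same way, 63 dropped under it and 6 had the opposite sign, Gbp2 at -1.28, Armcx1 at -0.15, Slc4a10 at -0.42, Casp12 at 0.18, P2ry6 at 0.47 and Zc3h12d at 0.092. The 217 were not limited to kept genes and include Armcx1 (3.5 and 9.5), which lay under the minimum of 10 and was not called above. The cause of these opposite signs was not tested. No paired analysis was possible because the table holds only means over the replicates, and for the same reason leaving out a replicate could not be run. Depth is unknown from the table, so how far it limits the low genes cannot be given.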

Other observations

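Transcripts of 1 gene sometimes moved apart. Of 2005 genes with at least 2 transcripts that reached 100, 57 had 1 transcript raised and 1 lowered at least 2-fold, and in 47 of the 57 the gene's sum stayed under 2-fold. With IL-10 in both groups, both transcripts were past 2-fold in the same directions for 4 of the 57. In Cpne1 the transcript ENSMUST00000127956 was listed at 0 untreated and stood at 317 with LPS, while ENSMUST00000136296 was at 103 and listed at 0, and the gene's sum was at 3055.5 and 2547.5. In Atf1 the values were 0 and 425 for ENSMUST00000167508 and 216 and 15.5 for ENSMUST00000168103. In Upp1, whose sum rose from 5585 to 13912, ENSMUST00000101525 was at 102.5 and 849, and ENSMUST00000130522 was at 182 and listed at 0. With IL-10 in both groups the Upp1 transcripts were at 150.5 and 411 and at 97.5 and 0, so both moved as before. The lowered transcripts of the other genes stayed under 2-fold there, with ENSMUST00000168103 of Atf1 at 201.5 and 199 and ENSMUST00000136296 of Cpne1 at 95.5 and 49. RSEM divides reads between transcripts of a gene, and its part in these values was not tested.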
